A study of Mus musculus with 2 samples.

Results

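First-intron sites were DNase-accessible sites whose midpoint lay in the first intron of a protein-coding gene, away from promoters and exons. For each autosomal protein-coding gene, the first intron of its longest protein_coding transcript in GENCODE M21 was taken on the mouse build mm10. Bases within 2 kb of any annotated transcript start, and bases of any exon, were set aside. The remaining first-intron bases, called eligible here, covered 174 Mb in 10277 genes, and the same steps left 521 Mb of later introns for comparison. By this rule 9671 of the 124227 autosomal peaks of replicate 1 and 4559 of the 65403 autosomal peaks of replicate 2 were first-intron sites.

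The libraries were thymus DNase-seq from 2 female B6CASTF1/J mice aged 25 days, the F1 hybrid of C57BL/6J and CAST, with 1 library per animal and 1 group in all. In DNase-seq, nuclei are cut lightly with DNase I, and stretches that are cut often are called as accessible sites, or peaks. The tissue was whole thymus, so thymocytes, other blood cells, epithelium and stroma were sampled together, and a smaller share of cells with an open site cannot be told apart from weaker opening in each cell. Replicates 1 and 2 are named by the biological replicate number in the labels, and no treatment or genotype contrast exists among the samples.

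Promoters of all 12 thymocyte marker genes (Cd3d, Cd3e, Cd3g, Cd4, Cd8a, Cd8b1, Dntt, Lck, Ptcra, Rag1, Rag2 and Thy1) carried a peak, at most 1 kb away from the start, in both libraries. Markers of other cell types were open more rarely, at 3 and 2 of 6 B cell promoters in replicates 1 and 2, 3 of 6 myeloid and dendritic promoters in each, 2 of 6 thymic epithelial promoters in each, 3 of 6 endothelial and stromal promoters in each, and 1 and 0 of 6 liver promoters. Replicate 1 had 127552 peaks and replicate 2 had 67270 in all, and read totals were not used here, so the depth behind this difference is unknown. Absolute site densities are therefore given per library, and first introns were compared with later introns within a library. Intervals given with shares and ratios are 95% intervals for counting error only.

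The first intron is the stretch of transcribed DNA that RNA polymerase meets right after the first exon, and it is often the longest intron of a gene. Enhancers, silencers and alternative promoters are well known from first introns. In thymocytes the best known case is Cd4, whose first intron carries a silencer that keeps the gene off in cells of the CD8 lineage and that is bound by RUNX proteins. DNase accessibility marks such elements without telling which of them activate and which repress. CTCF is a zinc finger protein that anchors chromatin loops, whereas ETS, RUNX, TCF/LEF and E-box proteins are the sequence-specific factors that direct T-cell development.

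The sequences below are the densest first-intron sites found in both libraries of 4 genes chosen for their known T-lineage or activation-linked regulatory DNA: Cd4 (the co-receptor of helper T cells), Bcl11b (a zinc finger factor needed for T-lineage commitment), Ets1 (an ETS factor) and Il2ra (the alpha chain of the interleukin-2 receptor). They are the forward strand of the mm10 reference, which is C57BL/6J, with the boundaries of the replicate 1 peak. Capitals mark letters of any of the 14 motifs searched, on either strand.
Cd4, chr6:124885221-124885460: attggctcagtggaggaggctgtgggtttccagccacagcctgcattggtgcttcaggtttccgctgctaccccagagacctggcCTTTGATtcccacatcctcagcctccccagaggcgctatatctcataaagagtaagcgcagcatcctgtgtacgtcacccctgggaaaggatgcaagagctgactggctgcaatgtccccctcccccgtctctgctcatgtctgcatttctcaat
Bcl11b, chr12:107998861-107999020: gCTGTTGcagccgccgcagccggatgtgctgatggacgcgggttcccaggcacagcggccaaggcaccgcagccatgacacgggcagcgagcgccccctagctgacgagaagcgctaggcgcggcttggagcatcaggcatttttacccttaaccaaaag
Ets1, chr9:32706141-32706440: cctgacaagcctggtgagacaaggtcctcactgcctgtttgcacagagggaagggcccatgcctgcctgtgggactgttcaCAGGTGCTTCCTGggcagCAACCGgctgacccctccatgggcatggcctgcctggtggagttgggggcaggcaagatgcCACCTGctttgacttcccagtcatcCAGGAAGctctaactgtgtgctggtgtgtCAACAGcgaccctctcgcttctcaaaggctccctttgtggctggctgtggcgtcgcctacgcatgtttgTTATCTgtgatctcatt
Il2ra, chr2:11664061-11664240: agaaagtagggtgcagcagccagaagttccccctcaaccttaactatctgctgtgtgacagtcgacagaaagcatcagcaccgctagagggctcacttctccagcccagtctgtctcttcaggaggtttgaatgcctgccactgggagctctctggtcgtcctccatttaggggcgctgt
Cd4 is transcribed from the reverse strand, and its site lay 2.88 kb from the transcript start with the letters CTTTGAT of the TCF/LEF motif. The Ets1 site, 10.3 kb from the start, held 7 matches, among them 2 of the ETS motif CAGGAAG and 2 of the E-box CACCTG. The Bcl11b site held 1 MYB match, and the Il2ra site held none of the 14 motifs.

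The next set shows the 4 sites that ranked highest in both libraries together, in cyclin D3 (Ccnd3), the composite gene model Gm20388, the transcription factor gene Gtf2ird1 and the formin gene Fmnl1, which encodes an actin regulator of blood cells. Strand, boundaries and capitals are as above.
Ccnd3, chr17:47508001-47508220: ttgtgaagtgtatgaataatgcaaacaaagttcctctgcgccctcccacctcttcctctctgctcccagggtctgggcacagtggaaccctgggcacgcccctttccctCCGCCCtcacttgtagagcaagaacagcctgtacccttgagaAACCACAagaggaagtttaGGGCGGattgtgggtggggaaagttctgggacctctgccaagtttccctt
Gm20388, chr8:121585461-121585720: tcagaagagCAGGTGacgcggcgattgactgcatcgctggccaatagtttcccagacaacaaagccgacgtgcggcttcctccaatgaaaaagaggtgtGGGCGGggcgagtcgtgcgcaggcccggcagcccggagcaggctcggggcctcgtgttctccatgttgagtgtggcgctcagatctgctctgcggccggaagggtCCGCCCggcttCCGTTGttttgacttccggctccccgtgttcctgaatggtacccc
Gtf2ird1, chr5:134444521-134444740: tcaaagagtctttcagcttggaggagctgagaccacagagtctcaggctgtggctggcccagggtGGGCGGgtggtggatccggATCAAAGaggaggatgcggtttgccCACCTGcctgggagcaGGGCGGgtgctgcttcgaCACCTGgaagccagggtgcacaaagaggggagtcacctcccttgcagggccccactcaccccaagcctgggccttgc
Fmnl1, chr11:103175001-103175280: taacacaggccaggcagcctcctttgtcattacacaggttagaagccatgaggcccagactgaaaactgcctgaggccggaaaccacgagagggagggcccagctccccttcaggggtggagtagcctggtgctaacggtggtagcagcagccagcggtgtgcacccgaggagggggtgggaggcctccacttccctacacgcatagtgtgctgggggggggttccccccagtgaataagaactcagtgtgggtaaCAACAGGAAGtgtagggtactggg
In Ccnd3 the site lay 3.06 kb from the start and held 1 RUNX match and 2 SP/KLF matches. Its deposited density, a signal value per peak whose scaling is not stated, was 34.0 in replicate 1 and 35.3 in replicate 2. These values ranked at the 99.4th and the 99.8th percentile of the autosomal peaks of their own library. Colq, which encodes the collagen tail of acetylcholinesterase, and Hdac7, a histone deacetylase gene of thymocytes, held the next densest sites, at mean percentiles of 98.1 and 98.0.

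First introns held more accessible sites per length than later introns in both animals. Replicate 1 had 5.57 sites per 100 kb of eligible first intron and 4.22 per 100 kb of later intron, a ratio of 1.32 with an interval of 1.29 to 1.35. Replicate 2 had 2.63 sites per 100 kb in first introns and 1.80 in later introns, a ratio of 1.46 with an interval of 1.41 to 1.51. Both ratios lay above 1, and they averaged 1.39 ± 0.098 (SD, n = 2). An exact test over 2 animals cannot give a p below 0.5, so none is given. Sites of first introns made up 7.78% and 6.97% of the autosomal peaks of replicates 1 and 2, against 17.7% and 14.4% for later introns, which cover more of the genome.

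The same order was seen without peak calls. Bases with a deposited false discovery rate below 0.05 numbered 16.1 per kb of eligible first intron and 12.0 per kb of later intron in replicate 1, a ratio of 1.34. Replicate 2 had 7.14 such bases per kb in first introns and 4.76 in later introns, a ratio of 1.50. Among the 19 autosomes the ratio of site densities was above 1 on 17 in replicate 1 and on 18 in replicate 2. It was lowest on chromosome 16, at 0.884 and 0.949, and highest on chromosome 8, at 1.93 and 1.94. The composite gene model Gm20388 lies on chromosome 8. It held 311 of the 806 first-intron sites of that chromosome in replicate 1 and 152 of 354 in replicate 2. The ratio of chromosome 8 without Gm20388 was not computed.

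Intron 1 stood apart from every later position. In replicate 1 the density was 5.57 sites per 100 kb in intron 1, 4.54 in intron 2, 4.24 in intron 3 and 4.40 in intron 4, and it was 3.84 in introns 11 and later. Replicate 2 gave 2.63, 2.10, 1.93 and 1.89 for introns 1 to 4, and 1.54 for introns 11 and later. The step between introns 1 and 2 was thus larger than any step among introns 2 to 4 in each library.

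**Figure D1:**
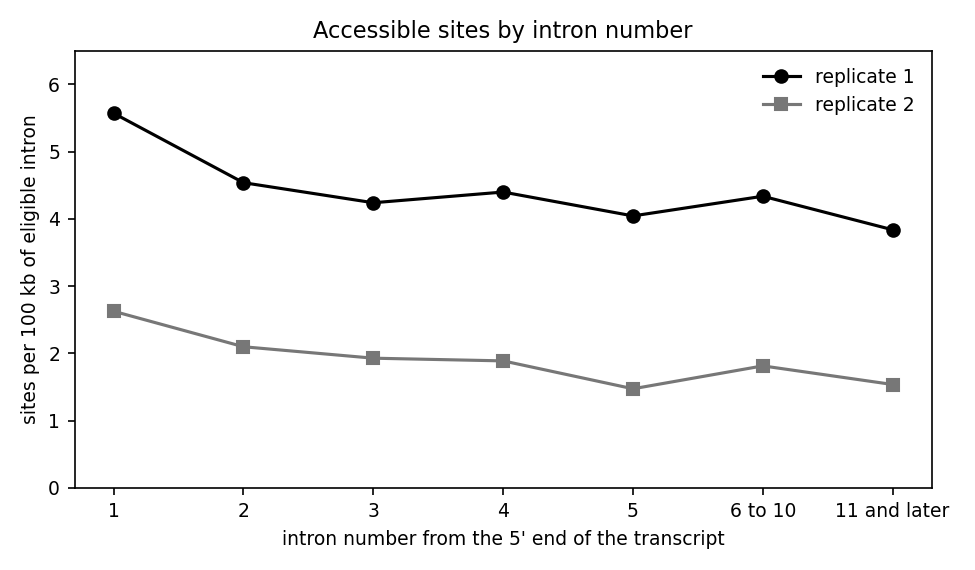
Sites per 100 kb of eligible intron (y axis) by the position of the intron in its transcript (x axis), with 1 line per library. Intron 1 is the highest point of both lines, at 5.57 in replicate 1 and 2.63 in replicate 2.

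The difference varied with distance from the start of the gene's chosen transcript. First-intron sites lay at a median of 16.2 kb and 17.1 kb from the start in replicates 1 and 2, against 57.7 kb and 55.5 kb for later-intron sites. Between 2 and 5 kb from the start, first introns held 8.58 sites per 100 kb and later introns 5.49 in replicate 1, a ratio of 1.56, and the ratio was 1.57 in replicate 2. Between 20 and 50 kb the ratios were 1.00 and 1.13, and between 100 and 200 kb they were 0.614 and 0.597. First-intron bases that far from the start lie in long introns, while later-intron bases there can lie in introns of any length. Distance and intron length therefore cannot be told apart in these bins. Among introns that were themselves 100 to 200 kb long, the ratios were 1.53 and 1.70. Weighted over bins of distance, the ratio was 1.11 in replicate 1 and 1.20 in replicate 2. Beyond 200 kb the ratios were 1.50 and 1.89, and without Gm20388 they were 0.575 and 0.654.

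Gm20388 is a composite gene model on chromosome 8 whose first intron runs over 4384 kb, of which 2721 kb were eligible, and several other genes lie inside it. It held 311 first-intron sites in replicate 1 and 152 in replicate 2, which is 3.22% and 3.33% of all first-intron sites. Leaving it out gave ratios of 1.30 and 1.43 over all distances.

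**Figure D2:**
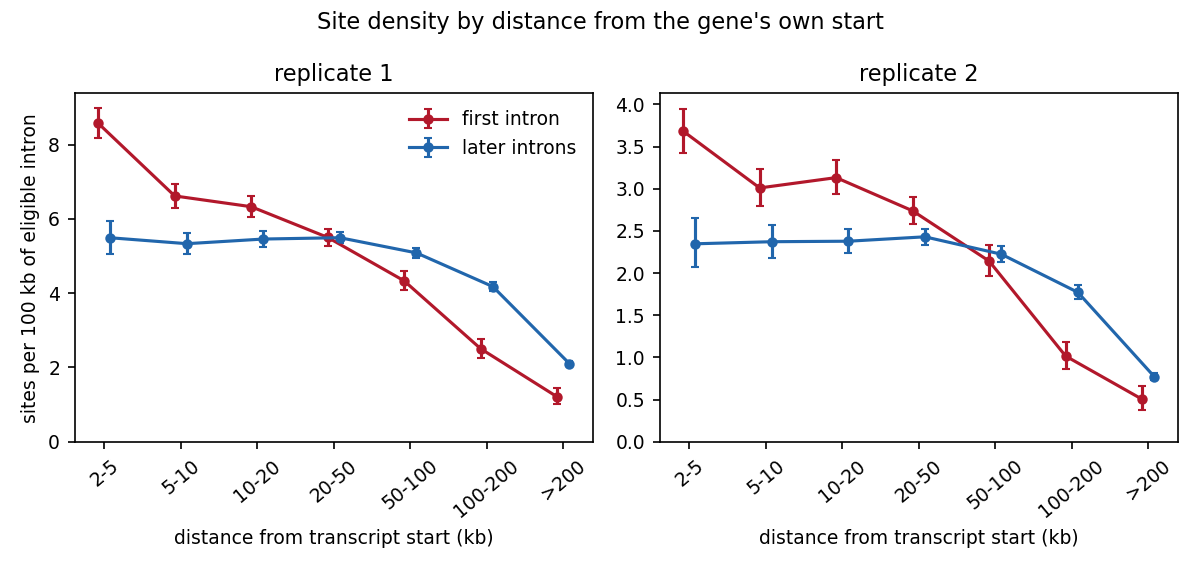
Sites per 100 kb of eligible intron (y axis) by distance from the gene's own transcript start in kb (x axis), for first introns and later introns, with 1 panel per library, 95% exact intervals and the composite gene Gm20388 left out. First introns start highest, at 8.58 in replicate 1 and 3.68 in replicate 2 between 2 and 5 kb, and lie below later introns beyond 100 kb.

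Intron length went the other way. First introns were longer, with a median of 2830 bp over genes with a first intron against 1246 bp for later introns, and long introns of both kinds were poorer in sites. In replicate 1 the density of first-intron sites was 7.77 per 100 kb in introns of 10 to 20 kb and 2.41 in introns over 200 kb, and later introns of these lengths had 4.75 and 1.19. Weighted over bins of length, the ratio of first to later introns was 1.59 in replicate 1 and 1.74 in replicate 2. The limit of 2 kb cut across a slope: eligible first-intron bases 2 to 5 kb from the nearest annotated start held 8.07 and 3.63 sites per 100 kb in replicates 1 and 2, and bases 1 to 2 kb away, just outside the rule, held 13.8 and 5.62.

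The higher density was found in genes with a promoter peak, here a peak within 1 kb of the gene's outermost annotated start. This start can differ from that of the chosen transcript. Genes without such a peak can thus have a peak at another of their starts, which was not counted. In genes with a promoter peak, first introns had 6.74 sites per 100 kb and later introns 4.90 in replicate 1, a ratio of 1.37. Replicate 2 gave 3.63 and 2.30, a ratio of 1.58. In genes with no such peak the values were 2.56 and 2.61 in replicate 1, a ratio of 0.983 (interval 0.922 to 1.05), and 1.11 and 1.07 in replicate 2, a ratio of 1.04 (interval 0.960 to 1.13). The intervals of the ratio did not overlap between genes with and without a promoter peak in either library. Genes with a promoter peak held 87.1% and 83.0% of first-intron sites in replicates 1 and 2, on 72.0% and 60.0% of the eligible first-intron bases. The same genes held 81.8% and 76.1% of later-intron sites, on 70.5% and 59.6% of the eligible later-intron bases. A first-intron site was present in 36.9% of eligible genes with a promoter peak and in 17.4% of those without in replicate 1, and in 23.7% and 9.33% in replicate 2. When the sites of each gene were set against an even spread over that gene's own introns, first introns held 1.04 and 1.07 times the even number in replicates 1 and 2. First introns lay above the even number in 39.8% of 5381 genes with a site in replicate 1 and in 40.9% of 3397 in replicate 2. A gene with 1 site lies below it whenever that site is in a later intron. The share of genes above it under an even spread was not computed, so these shares show no preference of single genes.

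First-intron sites lay in a minority of the eligible genes. At least 1 site was found in 3179 of the 10277 eligible genes in replicate 1 (30.9%), in 1870 in replicate 2 (18.2%) and in 1822 in both libraries (17.7%). Genes with 1 site numbered 1480 in replicate 1 and 1015 in replicate 2, and genes with at least 10 sites numbered 154 and 46. The 103 genes richest in sites, 1% of those eligible, held 21.9% of the sites of replicate 1 and 26.5% of those of replicate 2. These genes were picked by the same counts, and their share of the eligible bases was not computed. Eligible length was itself uneven, with 3632 genes at 10 kb or more and 759 at 50 kb or more.

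Genes of T-cell surface and signalling proteins were rich in first-intron sites. Of 36 listed genes 25 had eligible bases, and 19 of them held a site in replicate 1 and 14 in replicate 2, beside 30.9% and 18.2% of all eligible genes. Their first introns had 25.8 sites per 100 kb (interval 21.01 to 31.28) in replicate 1 and 15.2 (interval 11.6 to 19.5) in replicate 2, against 5.57 and 2.63 over all genes. The median was 1 site per gene in each library, against a median of 0 over all eligible genes in each. Later introns of the same list had 9.31 and 6.96 sites per 100 kb, against 4.22 and 1.80 over all genes. Both the list and its choice rest on prior knowledge of thymus and of earlier results from these libraries, so the counts are a description.

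Cd247, the gene of CD3 zeta, had 15 first-intron sites in replicate 1 and 17 in replicate 2. Il2ra had 20 and 9, Prkcq, a protein kinase C of T-cell receptor signalling, had 10 and 7, and the phospholipase gene Plcg1 had 8 and 2. Over all genes replicate 1 held 2.12 times as many first-intron sites as replicate 2, and Il2ra lay near that ratio, while Cd247 had about as many in both.

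Cd4 had 2 first-intron sites in each library, and each overlapped a peak of the other library. Over all genes this held for 43.7% of first-intron sites in replicate 1 and 92.8% in replicate 2. The site printed above had densities of 6.63 in replicate 1 and 7.85 in replicate 2, at the 89.6th and 91.3rd percentiles, and it held 4 and 6 footprints, the short protected stretches called by the authors. The second Cd4 site, at chr6:124886021-124886220, lay 2.10 kb from the start at the 81.5th and 83.5th percentiles. Cd8b1, which encodes a CD8 chain, had 3 and 2 sites in 1.20 kb of eligible first intron, and 16 and 15 in its later introns. Trat1, Il7r and Ptcra had eligible bases and no first-intron site in either library, and Themis, a regulator of thymocyte selection, had 1 site in each over 51.8 kb.

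Among T-lineage transcription factors, 22 of 36 listed genes had eligible bases, of which 20 held a site in replicate 1 and 17 in replicate 2, beside 30.9% and 18.2% of all eligible genes. The density was 17.6 sites per 100 kb (interval 15.34 to 20.05) in replicate 1 and 8.39 (interval 6.87 to 10.2) in replicate 2. Over all genes it was 5.57 and 2.63. Later introns of the same list were also rich, with 11.3 and 5.48 sites per 100 kb against 4.22 and 1.80 over all genes. The medians were 7.5 and 2.5 sites per gene. The 22 genes had 1263 kb of eligible first intron, and counts per gene were not adjusted for length. Rora, a nuclear receptor gene, had 43 sites in replicate 1 and 21 in replicate 2, Foxp1, a forkhead factor of naive T cells, had 16 and 19, and the ETS family gene Elf1 had 18 and 11. Tox, needed for the CD4 lineage, had 18 and 9, the ETS family gene Fli1 had 16 and 9, and the repressor gene Bach2 had 9 and 8. Rora had no peak within 1 kb of its outermost annotated start in either library. Its densest shared site lay 381 kb downstream of the start of the chosen transcript, at the 89.0th and 94.2nd percentiles.

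Ets1 and Bcl11b differed between the libraries by more than the 2.12 times seen over all first-intron sites. Ets1 had 24 first-intron sites in replicate 1 and 4 in replicate 2, and Bcl11b had 10 and 2. Gaps of this kind were also seen in other genes of the T-lineage lists, such as Ikzf1 and Satb1. All Ets1 and Bcl11b sites of replicate 2 overlapped a peak of replicate 1, as did 92.8% of all first-intron sites of replicate 2. The Bcl11b site printed above had a density of 15.0 in replicate 1 and 3.89 in replicate 2, at the 95.9th and 82.4th percentiles, and the Ets1 site had 5.51 and 6.30, at the 87.7th and 88.8th.

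Several central T-lineage factors have first introns too short to enter the count. The first intron of the longest Runx1 transcript is 0.229 kb long, and 47 and 26 sites of Runx1 lay in its later introns in replicates 1 and 2. Tcf7 (first intron 0.307 kb) had 29 and 19 later-intron sites, and Lef1 (2.18 kb) had 20 and 16. The first intron of Gata3 measured 0.420 kb and the gene had 1 later-intron site in each library. For these genes the class of a site follows from the chosen transcript.

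All lists of other cell types had fewer first-intron sites per length than both T-lineage lists of the same library, on small numbers. The 11 eligible neuron genes had 0.692 sites per 100 kb in replicate 1 and 0.160 in replicate 2, below the 5.57 and 2.63 of all genes. Endothelial and stromal genes had 2 sites in replicate 1 (0.898 per 100 kb) and 0 in replicate 2, where a count of 0 leaves an upper limit of 1.66 per 100 kb. Flt1, a vascular receptor gene of that list, had 1 and 0. Thymic epithelial genes had 0 sites in replicate 1 and 1 in replicate 2, in the epithelial transcription factor gene Trp63. The 10 B cell genes had 8.38 and 4.19 sites per 100 kb, of which Ralgps2 alone held 11 of 14 sites in replicate 1 and 6 of 7 in replicate 2. Myeloid and dendritic genes had 4 and 0 sites. In replicate 1 this was 8.60 per 100 kb, above the 5.57 of all genes. Its interval of 2.34 to 22.02 included the 17.6 of T-lineage transcription factors. In replicate 2 the count of 0 left an upper limit of 7.93 per 100 kb. Later introns of the myeloid and dendritic list had 10.3 and 3.58 sites per 100 kb, against 9.31 and 6.96 for T-cell surface and signalling genes. Liver genes had 1 and 0 first-intron sites, muscle genes 8 and 3, and broadly used genes 1 and 0.

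**Figure D3:**
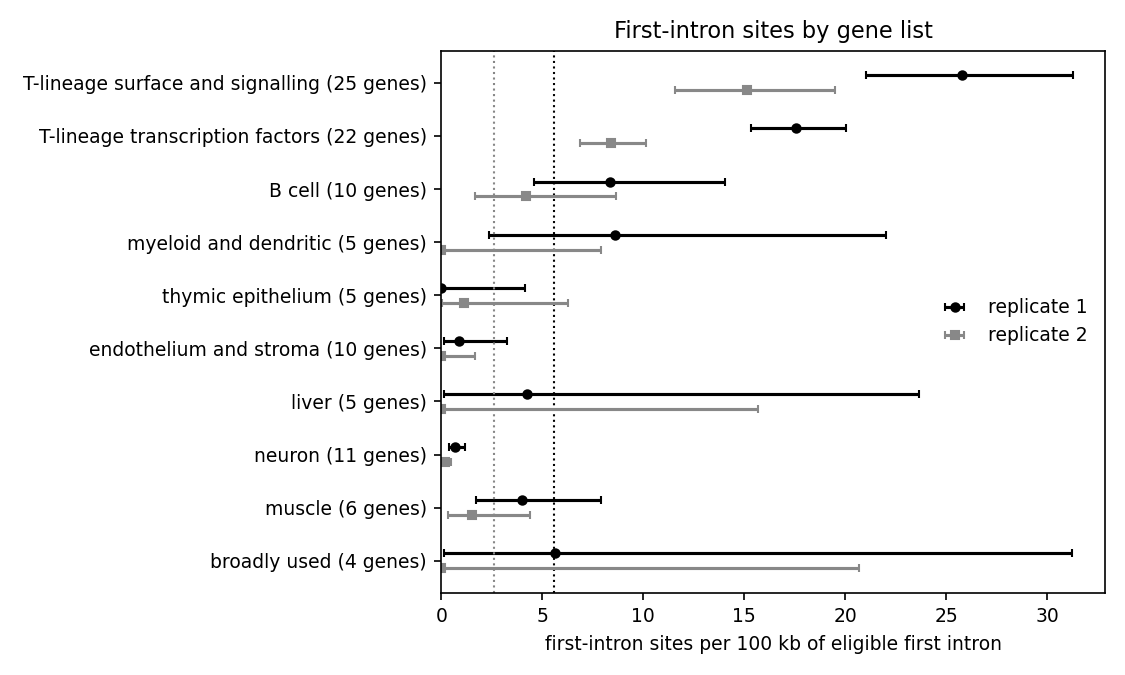
First-intron sites per 100 kb of eligible first intron (x axis) for 10 gene lists, with both libraries as points and exact 95% Poisson intervals. Dotted lines mark all genes, at 5.57 in replicate 1 and 2.63 in replicate 2, and both T-lineage lists lie above the line of their library.

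Ccnd3, a cyclin gene needed for thymocyte expansion, led the single genes apart from Gm20388, with 47 sites in replicate 1 and 22 in replicate 2 on 70.5 kb, and no site in its later introns. Maml3, a Notch co-activator gene, had 29 and 19, and Pip4k2a, a phosphoinositide kinase gene, had 33 and 17. Gse1 had 30 and 17, and its first intron lies within that of Gm20388. Hivep3, a zinc finger gene, had 28 and 16, Ext1, of heparan sulfate synthesis, had 25 and 16, Rapgef1, an exchange factor gene for RAP1, had 21 and 15, and the ubiquitin ligase gene Znrf1 had 36 and 14. Smad3, which carries the signal of TGF-beta, had 22 and 14 sites, all 14 of replicate 2 overlapping a peak of replicate 1. Over all genes 92.8% of first-intron sites of replicate 2 did so. The remaining named genes by number were Sorcs2, Hpcal1, Chst11, Nedd4l, Ldlrad4, Ninj2 and Tshz2, with 13 to 25 sites in replicate 1 and 12 to 16 in replicate 2.

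Densities per length were ranked over genes with at least 10 kb of eligible first intron and at least 3 sites in each library, since shorter introns such as that of Cd8b1 give high values on few sites. Kif21b, a kinesin gene, had 98.7 first-intron sites per 100 kb in replicate 1 and 71.8 in replicate 2, on 11.1 kb. Cerk, the ceramide kinase gene, had 124 and 61.8, and Il4ra, the receptor chain shared by interleukins 4 and 13, had 78.3 and 58.7. Ranked by the library where the value was lower, Tmem267, with 64.1 and 73.3, lay between Kif21b and Cerk. Egln3, Otulinl, Ramp1, Chdh, Qprt and Mvb12b followed Il4ra, with 50.4 to 61.7 per 100 kb in replicate 1 and 48.2 to 61.1 in replicate 2. Qprt, of NAD synthesis, had no promoter peak in either library. Mvb12b held 6 and 5 first-intron sites, and 39 and 24 in its much longer later introns.

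**Figure D4:**
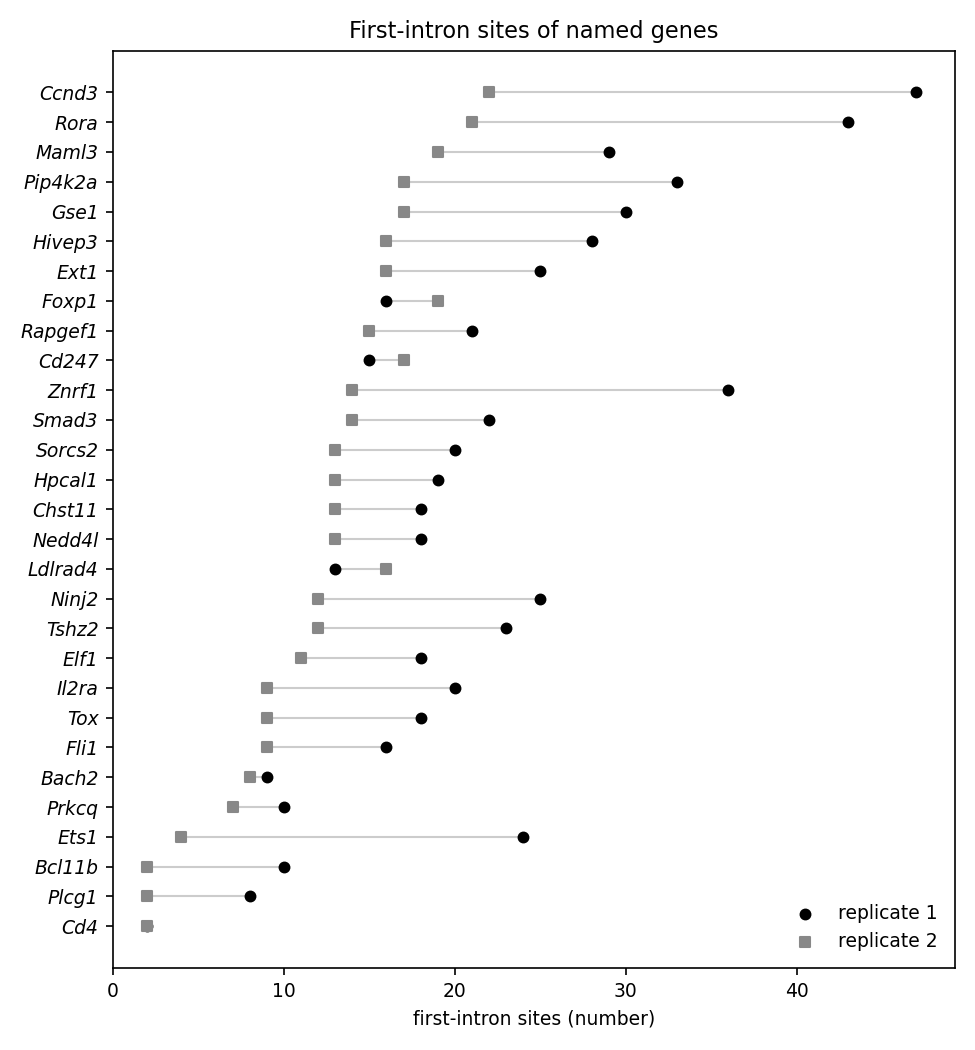
Number of first-intron sites (x axis) in each library for genes with the most sites and for named T-lineage genes, Gm20388 left out, with a line joining the libraries of a gene. Replicate 1 is the higher in most genes, with Foxp1, Cd247 and Ldlrad4 as the exceptions and Cd4 equal at 2.

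As single sites, first-intron peaks were of middling density. Their median percentile among the autosomal peaks of their library was 45.3 in replicate 1 and 45.5 in replicate 2, against 43.8 and 41.6 for later-intron sites and 75.6 and 75.9 for promoter peaks. The top 10% of densities held 2.71% and 3.31% of first-intron sites, against 33.0% and 27.1% of promoter peaks. Median width was 180 bp and 184 bp. A footprint was present in 83.6% and 88.1% of first-intron sites, against 83.4% and 88.1% of later-intron sites. The nearest other peak lay within 5 kb for 75.4% and 69.3% of first-intron sites and for 63.8% and 57.8% of later-intron sites. Any peak counted as a neighbour, promoter peaks included, and first-intron sites lay nearer to the transcript start. Whether this nearness accounts for the difference was not tested.

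Most first-intron sites of replicate 2 were also open in replicate 1. The share overlapping a peak of the other library by at least 1 bp was 92.8% in replicate 2 and 43.7% in replicate 1, against 89.2% and 47.1% of all autosomal peaks. Later-intron sites were shared at 90.3% and 38.6%. Within the third quartile of density in replicate 1, the shared part was 67.2% of first-intron sites and 56.7% of later-intron sites, and in the lowest quartile 5.65% and 5.75%. Over 4264 pairs of overlapping first-intron sites the deposited densities had a Spearman rho of 0.76 between libraries, a description over sites that share the same 2 libraries.

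CTCF letters were rarer in first-intron than in later-intron sites. The CTCF motif searched was CCA, 2 bases of any kind, AG, 2 bases of any kind and GGC. It was present on either strand of a window of 150 bp about the midpoint in 11.3% of first-intron sites and 17.5% of later-intron sites in replicate 1, and in 5.99% and 10.6% in replicate 2. Their intervals did not overlap in either library. Promoter peaks held it in 3.20% and 2.51%, all autosomal peaks in 12.4% and 7.38%, and windows 2 kb to either side of first-intron sites in 1.15% and 1.18%. Per length, sites with the CTCF motif were less dense in first than in later introns, at ratios of 0.850 and 0.821, while sites without it gave 1.42 and 1.53. Between 5 and 10 kb from the start the CTCF share was 11.9% in first and 24.2% in later introns in replicate 1, and 5.54% and 14.8% in replicate 2. Over 7 bins of distance, the share was lower in first introns with intervals apart in 5 bins in replicate 1 and in 4 in replicate 2, and the intervals overlapped in the other bins, which were those beyond 100 kb in both libraries and 2 to 5 kb in replicate 2.

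Sites with CTCF letters differed between the libraries. In replicate 1, 24.8% of first-intron sites with the motif overlapped a peak of replicate 2, against 46.1% of those without it. In replicate 2 the order was the other way, with 97.8% of sites with the motif and 92.5% of those without it overlapping a peak of replicate 1. In the densest quartile the motif was present in 18.3% of first-intron sites of replicate 1 and 3.07% of replicate 2, and in 28.8% and 3.09% of later-intron sites. The CTCF motif ran along the direction of the gene at 542 first-intron sites and against it at 539 in replicate 1, and at 120 and 151 in replicate 2, where the share along the gene was 44.3% (interval 38.5 to 50.2).

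ETS, RUNX and E-box letters were more frequent in first-intron sites than in their flanks, as were SP/KLF letters and others given below. Shares of ETS, RUNX and E-box letters in first-intron and later-intron sites differed by at most 1.14 times. ETS letters (CAGGAAG) were in 18.5% of first-intron and 16.2% of later-intron sites in replicate 1, and in 22.6% and 21.5% in replicate 2, against 5.74% and 6.16% of flanking windows and 13.7% and 16.1% of all peaks. RUNX letters (TGTGGTT) were in 7.98% and 9.67% of first-intron sites in replicates 1 and 2, against 4.003% and 4.136% of flanks and 6.33% and 6.46% of all peaks. The E-box CAGCTG was in 16.5% and 20.5% of first-intron sites and the E-box CACCTG in 23.3% and 29.2%, against 13.9% and 16.4%, and 20.2% and 22.4%, of all peaks. GATA letters (AGATAA) were in 5.18% and 5.72% of first-intron sites, below the 7.96% and 7.41% of flanks. NFAT letters (TGGAAAA) were in 2.14% and 1.97%, against 3.69% and 3.76% of flanks. Flanks were not matched for base composition, with a median GC content of 46.7% and 47.3% against 52.0% and 53.3% in sites. Whether base composition accounts for the differences from flanks was not tested.

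The remaining motifs were TCF/LEF (CTTTGAT), AP-1 (TGANTCA), MYB (CNGTTG), IRF (GAAA, 2 bases of any kind, GAAA) and POU/OCT (ATGCAAAT), whose shares in first-intron and later-intron sites differed by at most 1.24 times. SP/KLF letters (GGGCGG), common in CpG islands, were in 7.40% and 8.55% of first-intron sites and 43.0% and 49.3% of promoter peaks. All peaks held SP/KLF letters in 15.6% and 21.6%, and flanks of first-intron sites in 3.11% and 2.98%. TCF/LEF, AP-1 and MYB letters were also more frequent in first-intron sites than in flanks in both libraries, whereas IRF and POU/OCT letters were less frequent. NRF1 letters (GCGC, any base, TGCGC) were in 0.155% and 0.175% of first-intron sites and 5.00% and 6.39% of promoter peaks. Median GC content was 52.0% and 53.3% in first-intron windows, against 63.3% and 65.3% at promoters and 46.7% and 47.3% in flanks. The ratio of observed to expected CpG was 0.245 and 0.259 in first-intron windows, against 0.752 and 0.802 at promoters. Every motif was searched on both strands, and matches of different motifs could overlap. A match is a count of letters and not a measured binding site.

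**Figure D5:**
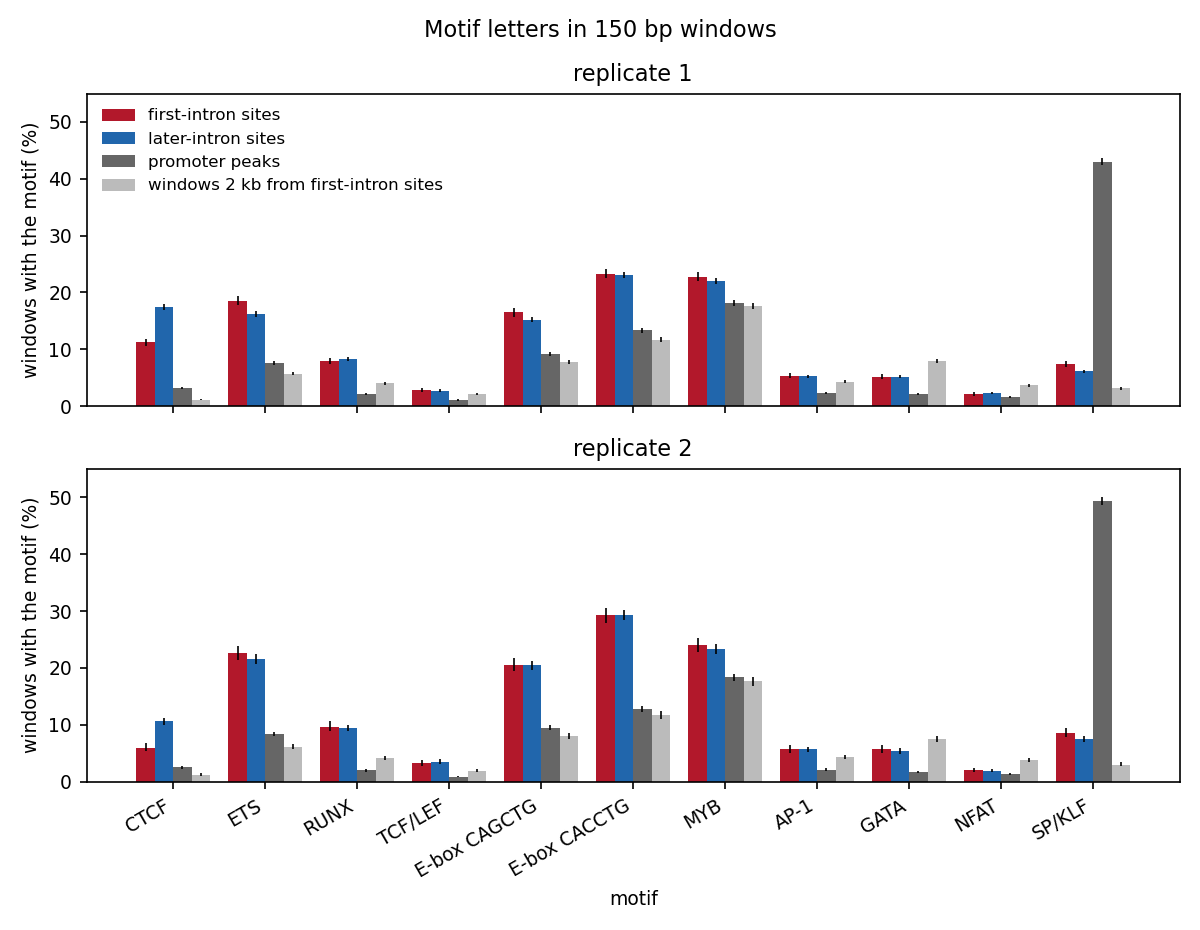
Share of 150 bp windows holding each motif on either strand (y axis, percent) for first-intron sites, later-intron sites, promoter peaks and windows 2 kb from first-intron sites, with 95% Wilson intervals and 1 panel per library. The CTCF bar of first-intron sites, at 11.3% and 5.99%, is lower than that of later-intron sites, and the SP/KLF bar of promoters is the tallest.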

How the data were processed

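DNase-seq peaks, footprints and per-base false discovery rates of 2 thymus libraries were used as deposited on mm10. Per the file headers and notes deposited with them, each came from its library's own filtered alignment, with no pooling; aligner and callers are not given in the sources used. The density per peak is a deposited signal of unstated scaling, so it was ranked within a list, and the q-value file made by the authors lists only bases below 0.05. Footprint lines carry the same number throughout, so only positions were used.

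The longer of the 2 deposited peak lists was classified by peak midpoint against GENCODE M21. Longest meant summed exon length, and a base in several introns counted once, for a first intron before a later one and otherwise for the shortest. Of the first-intron sites, 141 of replicate 1 and 37 of replicate 2 overlapped another peak of the same list, and these stayed in. Ratios carry exact conditional binomial intervals, shares Wilson intervals and list densities exact Poisson intervals, all at 95% and for counting error only. Named genes were those with the most sites in the library with fewer, those with the most per kb among genes with at least 10 kb of eligible first intron and 3 sites in each library, and the richest of each list; some genes under this rule are not reported here. The members and lists were chosen with earlier results of these data known.

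Sequences came from the RefSeq mm10 genome (Python 3.11.15, numpy 2.4.6, scipy 1.17.1, pandas 2.3.3). Counts were checked with bedtools 2.31.1, with 0 differing peaks. On simulated data a ratio of 1.4 was recovered as 1.40, with 92% of 200 intervals holding it, and rates set by distance alone gave a weighted ratio of 0.999. Simulated counts were independent, as the intervals assume, and rates were constant within the distance bins used for weighting. These runs therefore check the calculation only, and cannot test the intervals on sites that lie near each other. The libraries differed beyond counting error, for example in the ratio of first to later introns, and with 1 library per animal the animal and the library cannot be told apart.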

Additional observations from a re-analysis of the deposited data

Results flagged for a closer look

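Authors' footprints were also found in eligible first-intron bases outside every peak, which the comparisons of sites do not use. Replicate 1 had 2466 such footprints, 10.7% of its first-intron footprints, and replicate 2 had 1187, or 10.5%. Later introns had 10.4% and 9.73% of theirs outside peaks. Per 100 kb this was 1.42 and 0.684 in first introns and 1.05 and 0.428 in later introns.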

How the results depend on the processing

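The ratio of first to later introns, 1.39 as the mean of both libraries, moved by less than the spread between libraries under 10 alternatives, leaving out a library aside, and by more under 8. It was 1.50 with a limit of 1 kb from any start and 1.28 with 10 kb, 1.49 for the denser 50% of peaks, 1.16 weighted over distance and 1.67 weighted over intron length, and 1.01 in genes without a promoter peak. Against an even spread within each gene it was 1.05, and without Gm20388 and weighted over distance it was 1.12; these alternatives, and leaving out Gm20388 alone, were chosen after seeing the data. Leaving out a library gave 1.32 to 1.46. The median density percentile, 45.4, was 42.7 in the shorter list, 45.1 with a limit of 1 kb, 44.8 with 5 kb and 43.0 with 10 kb, and 45.3 to 45.5 when a library was left out. Genes with a site in both libraries numbered 1822, 774 with a limit of 10 kb, and 1870 to 3179 in single libraries. The shared percentage moved with list length: it was 43.7 to 92.8 in single libraries, and 73.9 and 74.8 after replicate 1 was reduced to the length of replicate 2 by density. The mean CTCF share of 8.62 percent was 8.13 with windows of 100 bp, 8.86 with 200 bp and 9.37 in the shorter list, against 5.99 to 11.3 in single libraries, a gap wide enough that these changes say little. The mean ratio did not fall below 1 under any alternative listed, but in genes without a promoter peak replicate 1 gave 0.983 and both libraries' intervals included 1, so the difference was not seen there. No paired analysis was possible because the 2 libraries form 1 group. Depth is unknown, so a site absent from replicate 2 cannot be told apart from one that lay under its detection limit.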
